A study of Caenorhabditis elegans with 4 samples.

Results

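Among the HLH-30 binding sites of Caenorhabditis elegans larvae, 516 narrow peaks lay in dense groups, out of 2791 peaks in the combined list of the study. Chromatin immunoprecipitation followed by sequencing (ChIP-seq) was used to find where the factor sits on the chromosomes. To choose the peaks, neighbours on a chromosome were joined wherever the gap between them was 10000 bp or less. A peak was kept if it was under 1000 bp wide and its group held 4 or more peaks of any width. The 516 peaks came from 2332 narrow peaks in all, and the others were 896 that stood alone and 920 in groups of 2 or 3. A further 459 peaks of 1000 bp or more are called broad here. The peaks were thus chosen by their positions and widths in the combined list, so spacing, width and strength in that list are descriptions and were not tested.

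The worms were L4 hermaphrodites of strain OP433, grown at 20 °C on a bacterial lawn of HB101 and crosslinked with 2% formaldehyde. The strain carries the allele unc-119(ed3) on chromosome III and the transgene wgIs433, in which hlh-30 is joined to TY1, EGFP and FLAG tags beside a wild-type unc-119(+) copy. The transgene was introduced by bombardment, and the labels state that the fusion follows the expression pattern of hlh-30. Chromatin was collected with antibodies against GFP in 2 ChIP replicates, and 2 input libraries without immunoprecipitation complete the series. All 4 libraries share this genotype and stage, and chromatin came from whole worms, so the tissue in which a site is bound is not resolved. Whether any dense group lies at the loci carried by the transgene could not be told, because no gene annotation of the build was used here.

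HLH-30 belongs to the family of bHLH leucine zipper proteins and is the counterpart of mammalian TFEB in the worm. It is known for turning on autophagy, lysosome and fat-breakdown genes during starvation and in long-lived worms, and it binds DNA as a dimer at short E-box motifs. Worm genes are short and lie close together, and some are transcribed as operons from a shared promoter. The peak lists name no gene, so which genes lie beside a dense group is not given here.

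Each list gives a position and a q-value per peak, which is the p-value of the peak caller after adjustment for the number of regions tested. Strength is given here as −log10 q, which grows with the number of reads in a peak as well as with enrichment. Coordinates are on build WormBase WS180. The weakest deposited peak had −log10 q of 3.69 in the combined list, 3.86 in replicate 1 and 3.87 in replicate 2, and the depth of the libraries is unknown. The replicate lists held 1527 and 1559 peaks, of which 1273 and 1284 were narrow.

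The dense groups were short runs of peaks, and the commonest size was the smallest allowed. There were 135 groups of 4 or more peaks, with 679 peaks between them, 516 narrow and 163 broad. Of these groups 66 held 4 peaks, 37 held 5, 13 held 6, 5 held 7, 9 held 8 and 5 held 9. They spanned from 4727 to 37147 bp, with a median of 15606 bp. Peaks covered a median of 26.6% of a group's span, from 7.08% to 78.9%, so in most groups the larger part of the sequence lay outside any peak. In 2 groups every peak was broad, which left 133 groups with narrow peaks.

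The groups with the most narrow peaks on each chromosome, with ties on I, III and IV settled by the strongest narrow peak, differed in build. On chromosome II a group from 14036572 to 14063321 held 8 peaks, all narrow. Its strongest peak, from 14039886 to 14040815, had −log10 q of 70.2 in the combined list, 42.8 in replicate 1 and 27.7 in replicate 2. The next in strength had combined values of 24.7, 17.9 and 16.2, and these 4 peaks were the ones found in both replicates. The other 4 peaks of the group had values from 4.36 to 6.35, of which 2 were in replicate 1 only and 2 in neither replicate. The strongest site thus stood well above the others found in both replicates, and these stood above the remaining 4.

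On chromosome X a group of 8 narrow peaks from 13306799 to 13337408 held 1 peak well above the others. That peak, from 13328776 to 13329220, was in both replicates, and it had −log10 q of 21.8 in the combined list, 13.1 in replicate 1 and 12.5 in replicate 2. A peak at a gap of 404 bp from it had 11.2 and was in replicate 2 only. The remaining 6 lay between 4.66 and 7.24, and each was found in 1 replicate at most. The next group on X, with 6 narrow peaks among 7, began 10898 bp beyond its end, a gap just too wide to join them.

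On chromosome III a group from 12549364 to 12583923 held 7 narrow peaks and 1 broad one, and it contained 2 of the 12 strongest narrow peaks of all dense groups. The one from 12567743 to 12568620 had −log10 q of 62.7 in the combined list, 38.3 in replicate 1 and 32.8 in replicate 2. The one at its far end, from 12583280 to 12583923, had 59.0, 39.2 and 32.8. Between them lay a peak with 4.78 that neither replicate list held. The broad peak of this group was weaker than both, at 9.72.

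On chromosome V the order was the opposite. A group of 9 peaks from 6213422 to 6247922 had a broad peak of 8419 bp with −log10 q of 202.5, and its 8 narrow peaks lay between 3.81 and 17.0. Of the 8, 4 were in both replicates, 2 in replicate 2 only and 2 in neither. On chromosome I the group from 10748033 to 10777763 held 6 narrow and 3 broad peaks, and there the strongest was narrow, at 27.5. On chromosome IV a group from 4469820 to 4477535 held 5 narrow peaks within 7716 bp, as many as a weaker one from 4400896 to 4407372, and 4 of the first were in both replicates with combined values of 32.8, 30.6, 17.9 and 16.0. The fifth peak, 192 bp wide and the narrowest of all 516, had 4.62 and was in neither replicate.

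The other groups of 9 peaks were on chromosome I from 7466578 to 7501003, on II from 6822198 to 6849713 and on V from 12528077 to 12557343. Their narrow peaks reached −log10 q of 25.3, 15.2 and 8.62. In each of these 3 the strongest peak was broad, at 62.1, 32.8 and 27.1. Of the 6 narrow peaks in the last of them none was in both replicates and 4 were in neither.

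**Figure D1:**
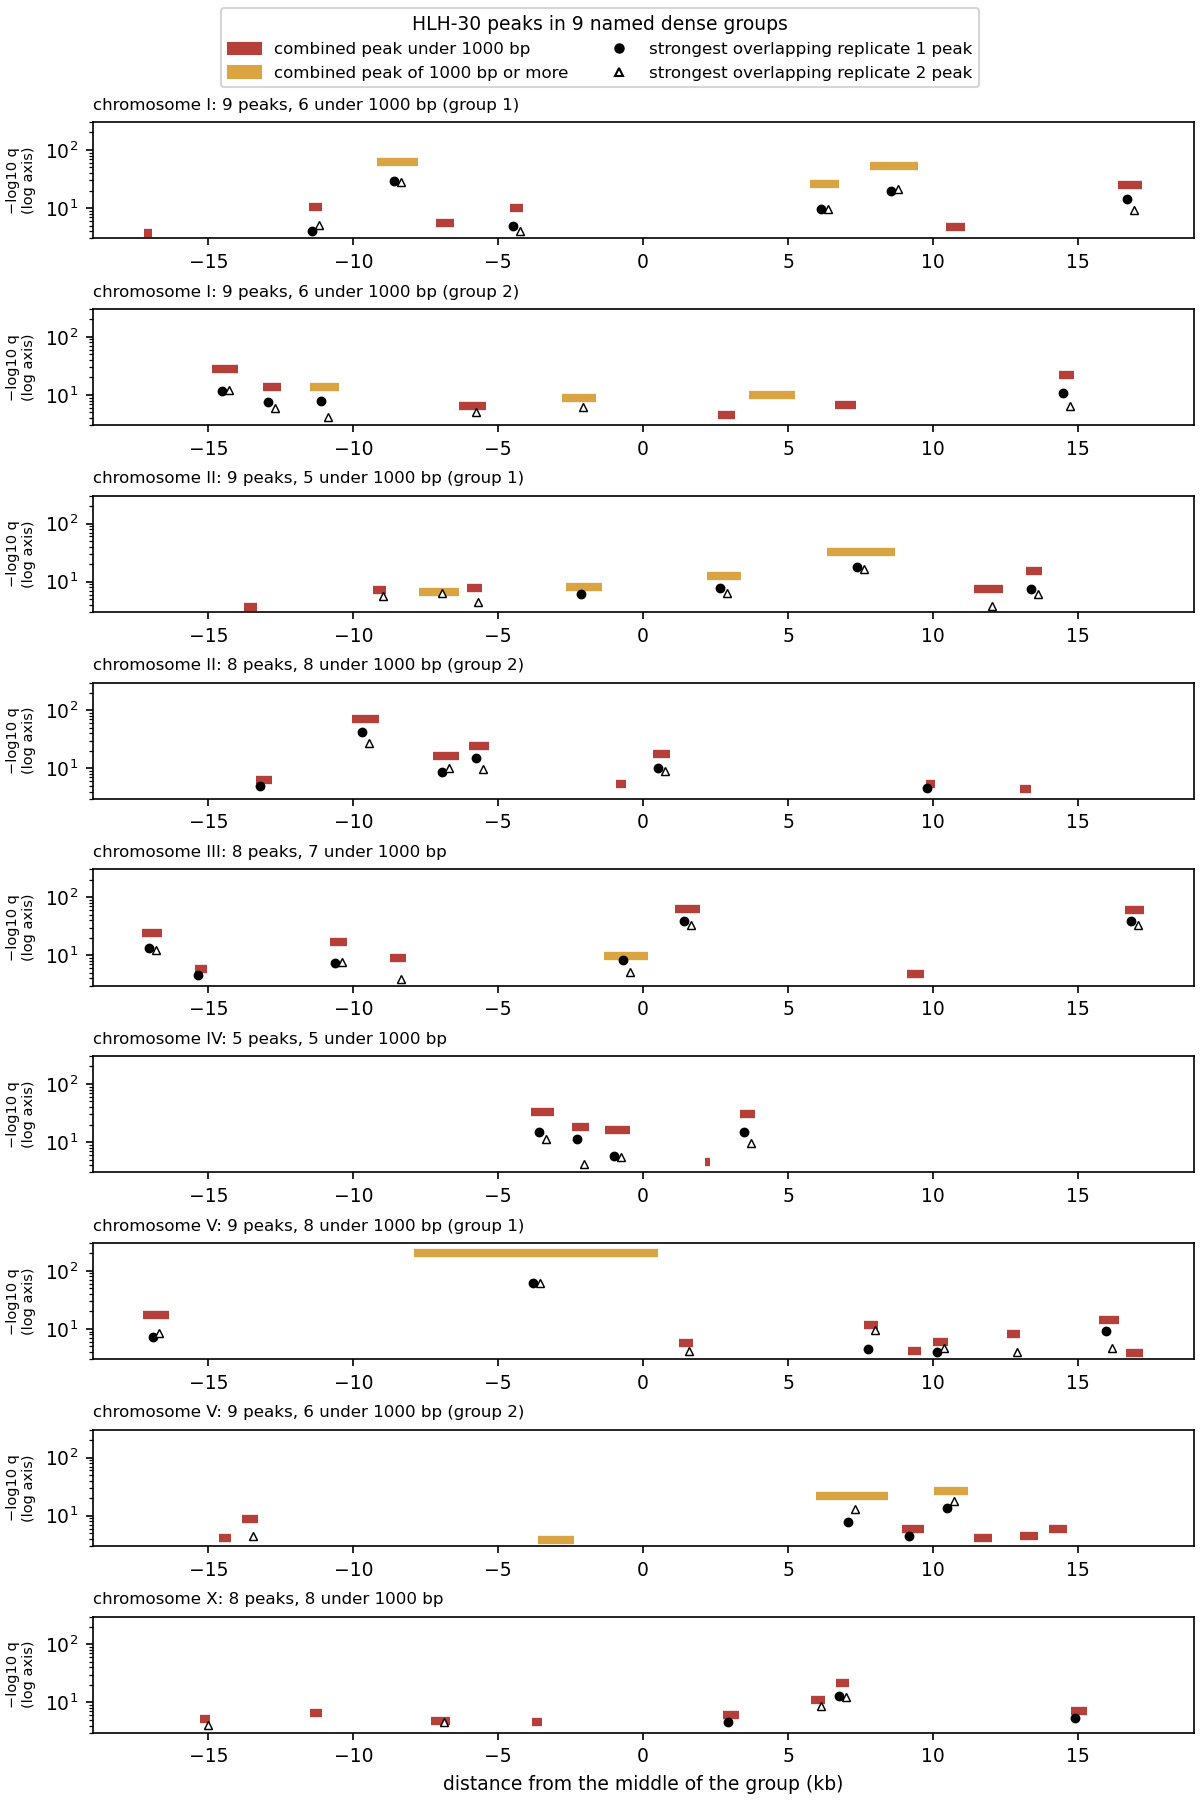
Combined HLH-30 peaks of 9 dense groups, drawn as horizontal bars at their −log10 q (log axis) and to the scale of their width against the distance from the middle of the group in kb, with the strongest overlapping peak of replicate 1 (filled circles) and replicate 2 (open triangles). Red bars are narrow peaks and ochre bars are broad ones. The groups range from a single 202.5 broad peak beside 8 narrow peaks of at most 17.0 on V to 8 narrow peaks with no broad one on II and X.

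Gaps inside the groups differed with the width of the neighbours. They run from edge to edge, so wider peaks leave shorter gaps at the same spacing of centres. Median widths were 1473 bp for broad peaks and 512.5 bp for narrow peaks of dense groups, and the spacing of centres was not measured. Narrow peaks of dense groups had their nearest neighbour at a median of 1324 bp (quartiles 606 and 3524 bp), against 2443 bp in groups of 2 or 3 and 24025 bp for peaks that stood alone. The rule fixes that the value of lone peaks is the largest, since they have no neighbour within 10000 bp. The rule does not fix the order of the other 2 but favours it, and this order was not tested. Of the narrow peaks of dense groups, 298 lay inside a group, with a neighbour within 10000 bp on each side. Peaks of a pair have no such neighbour on their outer side, and the nearer of 2 neighbours gives the shorter gap. Counted per gap, over neighbours of any width, the median was 1970 bp in dense groups and 2430 bp in groups of 2 or 3. Between 2 narrow neighbours of a dense group the median gap was 2581 bp over 324 gaps. It was 1227 bp over 166 gaps between a narrow and a broad neighbour, and 673 bp over 54 gaps between broad neighbours. Gaps under 500 bp made up 8.64% of the first kind (95% Wilson interval 6.05 to 12.2), 24.7% of the second (18.8 to 31.8) and 46.3% of the third (33.7 to 59.4). No 2 neighbours lay closer than 200 bp, which was the smallest gap in the whole list.

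The same order was present in groups of 2 or 3 peaks. There gaps under 500 bp made up 9.03% of 432 narrow pairs, 21.2% of 165 mixed pairs, and they were 6 of the 24 gaps between broad peaks. Where peaks up to 500 bp apart were counted as 1 in group size, 433 of the narrow peaks were in groups of 4 or more.

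**Figure D2:**
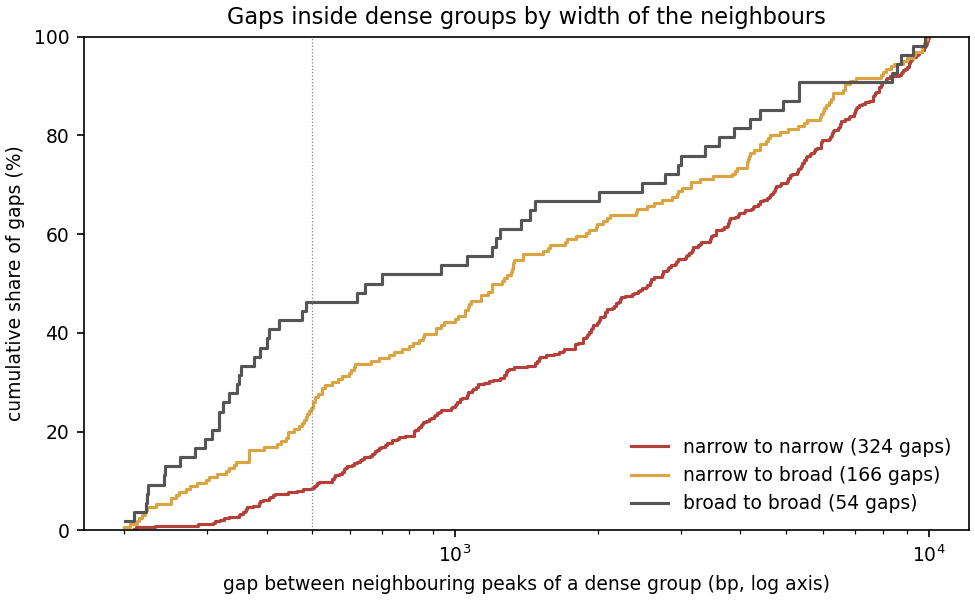
Cumulative share of the gaps (%) against gap length in bp (log axis) inside the 135 dense groups, with 1 line for each kind of neighbouring pair and a dotted line at 500 bp. Broad pairs reach 46.3% at 500 bp, mixed pairs 24.7% and narrow pairs 8.64%.

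A broad peak belonged to the group of 286 of the 516 narrow peaks (55.4%, 51.1 to 59.7), and 147 (28.5%, 24.8 to 32.5) had one as the next peak on a side. In groups of 2 or 3 the corresponding counts were 188 of 920 (20.4%, 18.0 to 23.2) and 160 (17.4%, 15.1 to 20.0). Larger groups have more places for a broad peak, so these shares are not comparable as rates. Peaks that stood alone have no neighbour by the rule, and their nearest broad peak lay at a median of 98983 bp. The median was 76310 bp for narrow peaks in groups of 2 or 3 and 12580 bp for those of dense groups. The rule favours this order, since it keeps every lone peak over 10000 bp from a broad peak and counts broad peaks in group size. Of the 135 groups 50 held no broad peak, 42 held 1 and 43 held 2 to 5. In 61 of the 83 groups with both kinds the strongest peak was broad.

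Strength and replicate support of narrow peaks were close in groups with and without a broad peak. The median −log10 q was 7.33 in groups that held a broad peak and 7.70 in groups that held none. Found in both replicates were 120 of 286 (42.0%, 36.4 to 47.7) in the former and 95 of 230 (41.3%, 35.1 to 47.8) in the latter. The 39 peaks within 500 bp of a broad neighbour were wider, with a median of 660 bp against 512.5 bp for all 516, and 16 of them (41.0%, 27.1 to 56.6) were in both replicates.

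Few of the narrow peaks shared a replicate peak with a neighbour. Of the 259 that overlapped a peak of replicate 1, 1 shared it with another combined peak, and of the 270 that overlapped a peak of replicate 2, 4 did. None overlapped more than 1 peak of either replicate.

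The strongest narrow peak of a dense group lay on chromosome III from 4281766 to 4282713. It was 948 bp wide and ranked 39 in the combined list, with −log10 q of 84.9 there, 42.7 in replicate 1 and 45.0 in replicate 2. Its group of 4 held no broad peak. The second, on III from 349420 to 350308, had 73.9, 44.1 and 41.8, and it lay 200 bp from a broad peak in a group with 3 of them. Both were thus about as strong in one replicate as in the other.

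On chromosome X the strongest was the peak from 7333910 to 7334789, at the edge of a group of 5, with −log10 q of 62.6 in the combined list, 35.4 in replicate 1 and 34.4 in replicate 2. On V it was the peak from 19528983 to 19529622, with 62.2, 32.8 and 29.96. On I it was the peak from 2863791 to 2864505, with 46.8, 26.8 and 22.4. On IV it was the peak from 2774296 to 2775021, with 44.2, 19.5 and 19.1, and a broad neighbour 417 bp away. In these 4 the replicates lay close to each other and below the combined value.

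The 12 strongest narrow peaks, all found in both replicates, ran from 46.8 to 84.9 in −log10 q and came from 11 groups. Their median width was 879 bp, from 614 to 948 bp, and 4 had a broad peak in the group. Their lowest ranks were 120 in the list of replicate 1 and 153 in that of replicate 2, and 8 of the 12 were stronger in replicate 1. At the other end, the strongest narrow peak that neither replicate list held was on chromosome I from 9316936 to 9317333, with −log10 q of 11.6 in the combined list. The next were on I from 6103036 to 6103549, with 9.41, and on V from 11061884 to 11062422, with 9.07.

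As a class, the narrow peaks of dense groups had slightly higher median width and strength than those that stood alone. Their median −log10 q was 7.50 (quartiles 5.15 and 13.8), against 6.80 (4.82 and 11.2) for peaks alone and 7.51 (5.09 and 12.8) for peaks in groups of 2 or 3. Median widths were 512.5, 439 and 478.5 bp. The strongest narrow peak of the whole list stood alone, at 138.4. The ranges overlapped almost entirely. Among peaks under 400 bp the dense ones were the weaker, with a median of 4.77 against 5.72 alone. Among peaks of 800 bp or more they were the stronger, with 14.7 against 9.07, and between these widths the medians were 7.78 and 7.25, then 9.98 and 10.2.

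Narrow peaks of a dense group varied in strength, and neighbours were only weakly alike. In the 123 groups with at least 2 narrow peaks, the strongest had a median of 3.39 times the −log10 q of the weakest. No such ratio for peaks of different groups is given here for comparison. Of the variance of log10(−log10 q) over those 506 peaks, 10.4% lay between groups, against 6.49% in groups of 2 or 3. Across 324 pairs of adjacent narrow peaks, Spearman's rho of −log10 q was 0.16, against 0.067 in groups of 2 or 3 (432 pairs) and 0.017 between successive peaks that stood alone (890 pairs). These correlations run across peaks of the same libraries, neighbouring pairs share a peak, and they are weak. Peaks inside a group had a higher median than those at its edges, 8.16 over 298 peaks against 6.78 over 218.

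Replicate support was then compared between the classes, to show how many of the sites were called in each ChIP library on its own. Of the 516 narrow peaks of dense groups, 215 (41.7%, 37.5 to 46.0) overlapped a peak of both replicates by at least 1 bp, against 37.9% of all narrow peaks. Of the peaks alone 300 (33.5%, 30.5 to 36.6) did so, and of those in groups of 2 or 3, 369 (40.1%, 37.0 to 43.3). The dense groups exceeded the lone peaks by 8.18 percentage points (2.95 to 13.4). In neither replicate were 202 (39.1%, 35.0 to 43.4), with 413 (46.1%, 42.9 to 49.4) of the lone peaks and 43.3% of all narrow peaks. The replicates gave this order separately. Replicate 1 held 259 of the dense peaks (50.2%) and 43.75% of the lone peaks, with 47.0% of all narrow peaks. Replicate 2 held 270 (52.3%) and 43.6%, with 47.6% of all.

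No test of these differences was made. The combined list and the replicate lists probably describe the same ChIP libraries, though how the replicates were combined is not stated. Peaks of a group are not independent, so the intervals, which cover counting error only, are too narrow. The difference narrowed when peaks of like strength were set side by side. In the weakest quartile of narrow peaks, up to −log10 q of 5.0, none of 123 dense and none of 246 lone peaks was in both replicates, which allows shares of up to 2.44% and 1.22% (3 counts of the total), and in the next quartile 5 of 119 and 13 of 235 were. Between 7.18 and 12.4, 64 of 126 dense peaks (50.8%, 42.2 to 59.4) and 102 of 221 lone peaks (46.2%, 39.7 to 52.7) were. In the strongest quartile the counts were 146 of 148 and 185 of 194. With the lone peaks weighted to the strength mix of the dense ones, their share was 39.9%, which leaves 1.77 percentage points.

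**Figure D3:**
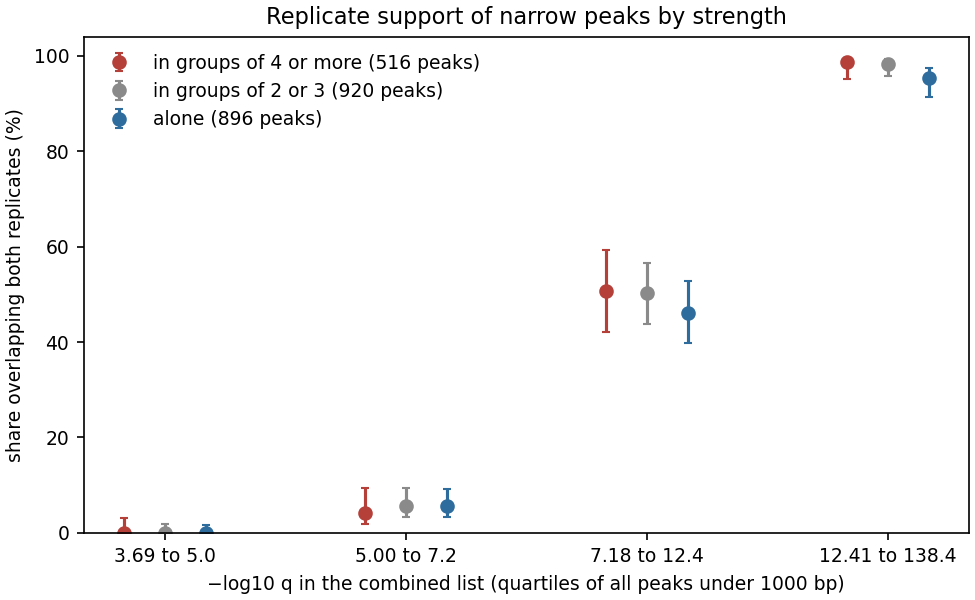
Share of narrow peaks overlapping a peak of both replicates (%) in each quartile of −log10 q, for peaks in groups of 4 or more (red), in groups of 2 or 3 (grey) and alone (blue), with 95% Wilson intervals. The 3 classes overlap within each quartile, from 0% in the weakest to between 95.4% and 98.6% in the strongest.

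Partners in the replicate lists were of similar strength in both. The strongest overlapping peak had a median −log10 q of 7.05 in replicate 1 and 6.69 in replicate 2 for dense peaks, against 6.10 and 5.97 for lone peaks. Of the peaks in both lists, replicate 1 was the stronger at 119 of 215 dense peaks (55.3%) and at 177 of 300 lone peaks (59.0%). Within dense groups support was mixed. In 98 of 133 groups some but not all narrow peaks were in both replicates, in 11 groups all were and in 24 none were. At least 1 peak of each replicate fell within the span of 126 of the 135 groups, and 3 groups contained no peak of either. The median number of replicate peaks in a span was 3 in each replicate, and in 36 groups both replicates had 4 or more.

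The rule was also applied to each replicate list by itself, and the other replicate was used to see whether the grouping recurred. Replicate 1 gave 177 narrow peaks in 51 dense groups and replicate 2 gave 189 in 54, with 8 peaks in the largest group of each. Of the 177, 152 (85.9%, 80.0 to 90.2) overlapped some peak of replicate 2, against 500 of 628 lone peaks (79.6%, 76.3 to 82.6) and 81.8% of all narrow peaks of replicate 1. Of the 189, 157 (83.1%, 77.1 to 87.7) overlapped some peak of replicate 1, against 486 of 621 (78.3%, 74.8 to 81.3) and 80.1% of all.

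Most of these partners were themselves in dense groups. That was so for 118 of the 177 (66.7%, 59.4 to 73.2) and 111 of the 189 (58.7%, 51.6 to 65.5). These are both directions of 1 comparison of the same pair of lists, so they give no spread between replicates. Over all narrow peaks it was so for 12.3% in replicate 1 and 10.9% in replicate 2. Lone peaks gave 4 of 628 and 3 of 621, and a lone peak has no neighbour within 10000 bp in its own list. Whole groups were compared in the same way. Of the 51 groups of replicate 1, 35 (68.6%, 55.0 to 79.7) overlapped a dense group of replicate 2, and 35 of the 54 groups of replicate 2 (64.8%, 51.5 to 76.2) overlapped one of replicate 1. Dense groups of the combined list overlapped 45 of the 51 and 44 of the 54. In the other direction, 45 and 44 of the 135 combined groups overlapped a dense group of replicate 1 and replicate 2.

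Chromosome III held the most narrow peaks of dense groups and chromosome IV the fewest. On III there were 141 in 38 groups, 28.0% of its 504 narrow peaks (24.2 to 32.1). On IV there were 17 in 5 groups, 6.39% of 266 (4.03 to 10.0). The shares on I, II, V and X lay between 22.1% and 23.8%. Peaks of all widths were also densest on III, at 42.4 per Mb, and sparsest on IV, at 18.1 per Mb, and closer peaks join more readily under a fixed gap. How much of the difference in grouping goes beyond density was not tested. In the replicate lists IV lay nearer to the other chromosomes. There 12 of 95 narrow peaks (12.6%) were in dense groups in replicate 1 and 10 of 89 (11.2%) in replicate 2, where the other chromosomes ranged from 11.2% to 18.2% and from 13.3% to 17.5%. Chromosome III was highest in replicate 1, at 18.2%, but not in replicate 2, where it was at 14.1% and II, I and X lay above it.

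**Figure D4:**
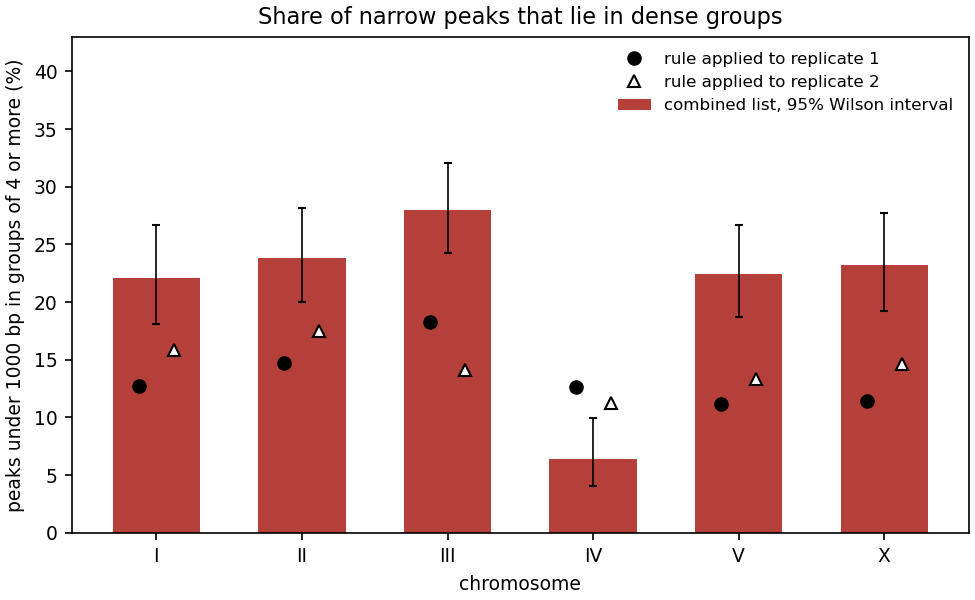
Share of narrow peaks that lie in groups of 4 or more (%), by chromosome, in the combined list (red bars with 95% Wilson intervals) and with the rule applied to replicate 1 (filled circles) and replicate 2 (open triangles). In the combined list IV stands at 6.39% and III at 28.0%, whereas IV is at 12.6% and 11.2% in the replicates.

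The 17 dense peaks of IV ranged from 3.998 to 44.2 in −log10 q. Their median was 12.3, against 7.02 for the lone peaks of IV, and 8 of 17 (47.1%, 26.2 to 69.0) were in both replicates against 26 of 134 lone peaks (19.4%, 13.6 to 26.9). Of these 8, 4 came from the group from 4469820 to 4477535 and 3 from the one from 4400896 to 4407372. The values of IV thus rest on few places, and its peaks are not independent. On III the corresponding values were 9.10 and 6.88, with 70 of 141 (49.6%, 41.5 to 57.8) and 57 of 156 (36.5%, 29.4 to 44.3) in both. On I, II and X the dense share in both replicates was also the higher, at 37.5% against 31.7%, 39.8% against 31.5% and 44.3% against 38.7%. On V it was the lower, with 29 of 92 dense peaks (31.5%, 22.9 to 41.6) and 70 of 176 lone peaks (39.8%, 32.8 to 47.1), and the medians there were 6.95 and 6.98. The intervals of dense and lone peaks overlap on every chromosome.

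Position along the chromosome was measured against the last peak end, since no chromosome length of this build was used, and the part from 33.3% to 66.7% is called central. On the 5 autosomes 199 of 428 dense narrow peaks (46.5%, 41.8 to 51.2) were central, against 269 of 741 lone peaks (36.3%, 32.9 to 39.8), 351 of 784 peaks in groups of 2 or 3 (44.8%, 41.3 to 48.3) and 41.9% of all narrow peaks there. The chromosomes did not share this order. The dense share was the higher on V (63.0% against 38.1%), III (48.9% against 31.4%) and I (48.75% against 34.9%), and the lower on II (33.7% against 43.6%). On IV none of 17 was central, against 32.8% of the lone peaks, and all 17 lay between 1.70% and 32.0% of the length. Counted as independent peaks, 0 of 17 allows a share of up to 17.6%. The 17 came from only 5 groups, and peaks of a group share a position, so that limit is too low. With the rule applied to each replicate list the difference on the autosomes, which was 10.2 percentage points in the combined list, was −0.54 in replicate 1 and −7.75 in replicate 2. No direction is therefore called.

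Dense peaks were also unevenly placed outside the central part. The first 10% of the length of the autosomes held 8 of the 428 (1.87%) and the last 10% held 56 (13.1%). Lone peaks gave 8.64% and 8.91%, and narrow peaks in smaller groups 8.42% and 6.12%, in the first and the last stretch. The strong groups on II near 92.0% of the length and on III near 91.3% lay in that last stretch. On X 25 of 88 dense peaks (28.4%, 20.0 to 38.6) were central, close to the 46 of 155 lone peaks (29.7%, 23.0 to 37.3) and 26.9% of all narrow peaks. There 24 of the 88 (27.3%) fell between 70% and 80% of the length, which holds the pair of neighbouring groups described above. Narrow peaks in smaller groups on X had 16.2% in that part and lone peaks 12.3%. The shares per 10% of the length were not tested. Peaks of a group share a position, so these counts are not independent.

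**Figure D5:**
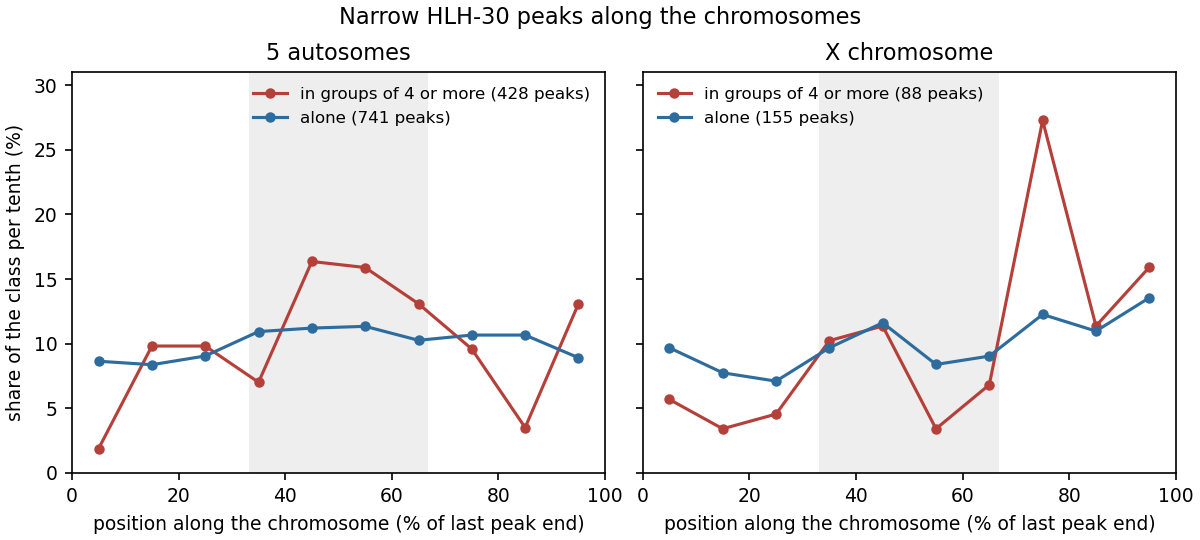
Share of each class per 10% of the chromosome length (%) against position in % of the last peak end, for narrow peaks in groups of 4 or more (red) and alone (blue) on the 5 autosomes (left) and X (right), with the central part shaded. On the autosomes the red line runs from 1.87% in the first 10% of the length to 16.4% just before the middle and 13.1% at the end, and on X it reaches 27.3% between 70% and 80%.

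The limits of the rule fell among peaks of similar kind. The widest narrow peaks of dense groups were on III from 3954120 to 3955117 (998 bp, −log10 q of 39.1), on III from 13766407 to 13767400 (994 bp, 16.7) and on II from 13287759 to 13288750 (992 bp, 5.91). The narrowest broad ones were on I from 7489548 to 7490556 (1009 bp, 25.7), on III from 9826841 to 9827855 (1015 bp, 15.7) and on I from 10751402 to 10752419 (1018 bp, 13.8). The largest gap joined was 10000 bp and the smallest not joined 10001 bp, with 50 gaps in the last 1000 bp below the limit and 50 in the first 1000 bp above it. Groups of 4 held 212 narrow peaks with a median −log10 q of 7.04, and groups of 3 held 327 with a median of 7.78.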

How the data were processed

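Peaks of HLH-30 were analysed from 3 deposited lists, 1 for each of 2 ChIP replicates and 1 combined. Per the file headers the lists are in GFF version 3 on WormBase WS180, and each line names PeakSeq as the caller. The authors deposited a q-value per peak as the only measurement. For the version of the caller, the aligner, the filters, the control and the way of combining replicates, the sources used here give nothing, and depth is unknown. The 2 input libraries were not analysed here.

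Computed here were −log10 q, widths, gaps (next start minus previous end minus 1), groups, overlap of at least 1 bp between lists and 95% Wilson intervals (Newcombe's method for differences), with Python 3.11.15, numpy 2.4.6, pandas 2.3.3 and scipy 1.17.1. Grouping and overlap were tested on simulated lists. Nothing in the labels says whether replicates came from separate cultures. The peaks, classes and comparisons were chosen with earlier results of these data known. Named groups are, on each of 6 chromosomes, the dense group with most narrow peaks (ties by the smallest q-value of such a peak), plus all groups of the largest size. Named peaks are the 12 strongest in both replicates (summarised), the strongest on each chromosome, the 3 strongest in neither replicate and the 3 on each side of the width limit. The second strongest and some peaks of the named groups were singled out after their values were seen. Analyses of sequence and genes were not run, because no genome or annotation of WS180 was used here. Alternatives were other gaps, group sizes, widths, overlap definitions and strength limits, and each replicate's list.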

Additional observations from a re-analysis of the deposited data

How the results depend on the processing

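Of 63 alternatives for 7 results, 33 left the value within its interval or spread (or, for the count of peaks, within 1.5 times of it), 26 moved it and 4 reversed it. For strength and spacing the spread was the standard deviation of only 2 values, those of the replicate lists. For partners in a dense group of the other replicate it was the range of both directions, which is no spread between replicates. The count of 516 followed the rule, with 251 at gaps up to 5000 bp, 1020 at 20000 bp, 843 in groups of 3 or more, 304 in groups of 5 or more, 108 in the stronger 50% of the list and from 177 to 189 in the replicate lists. The difference in support by both replicates, dense minus alone, stayed between 5.67 and 11.5 percentage points under other gaps, group sizes, widths, overlaps and the stronger 50%, with 6.44 to 8.69 for 1 replicate, and was 1.77 with lone peaks weighted to the dense strength mix. The difference in median −log10 q, 0.71 as reported, was 1.21 at 5000 bp, 1.06 in groups of 5 or more, 0.24 for peaks under 750 bp, 3.10 in the stronger 50% and 1.45 to 1.83 in the replicate lists. The central share on autosomes reversed, to −2.17 percentage points at gaps up to 5000 bp, −3.15 in the stronger 50% and −7.75 to −0.54 in the replicate lists. It was 17.3 at 20000 bp, 6.21 without chromosome V, 12.3 with each group counted once and 11.7 over the central 50%, and the cause was not tested. The median nearest gap was 889 bp at gaps up to 5000 bp, 2490 bp at 20000 bp, 1512 bp in groups of 3 or more and also for peaks under 750 bp, 1662 bp with peaks up to 500 bp apart counted as 1, and 1045 to 1235 bp in the replicate lists. A broad peak was in the group of 45.7% in groups of 3 or more, 65.1% in groups of 5 or more, 64.8% in the stronger 50% and 55.4% to 63.0% in the replicate lists. Partners in a dense group of the other replicate were 70.9% in groups of 3 or more, averaged over both directions. The values of the replicate lists for count, strength, spacing and broad peaks were chosen after seeing the data, as were the strength weighting, the setting without chromosome V and the counting of single groups. No paired analysis was possible because no test compared ChIP with input, and the inputs bearing the same numbers were not analysed here.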
